A study of Mus musculus with 21 samples.

Results

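Part 5 of the presomitic mesoderm was set against part 4, its neighbour in the numbering, with 3 arrays each, so that 6 of the 21 arrays of the series enter the comparison. The arrays were assigned to the parts by their titles, and the comparison was chosen with earlier results of these data known. The presomitic mesoderm (PSM) of CD-1 mouse embryos, an outbred strain, was freed from surrounding tissue after pancreatin (2 mg/ml, 1 min) and cut into 7 pieces, the parts, with 3 biological replicates each. The stage label is E8.5 and the dissection protocol gives 9.0 days post-coitus. Neither part carried a mutation, a transgene or a treatment of its own. Part 4 and part 5 therefore differ, as far as the labels say, in position only, and which part number lies at which end is not labelled. Left and right PSM of an embryo were both used, and the labels do not tie arrays to embryos. Some arrays therefore come from the same embryo, and a p-value reflects the spread among arrays rather than among embryos. Pieces of part 4 and part 5 may also come from the same PSM, and the main fit did not pair them.

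The PSM is the unsegmented mesoderm that flanks the neural tube in the trunk and tail. Cells enter it from progenitors in the tailbud, pass through it under opposing signals of FGF and Wnt on 1 side and retinoic acid on the other, and are cut off as somites. A segmentation clock of Notch, Wnt and FGF target genes oscillates in it. Near the determination front, Tbx6 and Notch signalling switch on Mesp2, which sets the segment boundary through Ripply and Eph and ephrin genes. Genes of somite polarity, epithelium and later muscle and skeleton follow.

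The log2 scale used throughout is log2(MAS5 signal + 16), on which a signal of 0 becomes 4 and the changes of weak genes are understated. Genes of PSM identity were measured in both parts. Pcdh8, a protocadherin of the anterior PSM also known as papc, had levels of 12.15, 11.85 and 11.66 in replicates 1, 2 and 3 of part 4 and of 12.60, 12.35 and 12.40 in part 5. Meox1, a homeobox gene of the somite lineage, had levels of 11.11, 10.44 and 10.76 in part 4 and of 11.32, 11.19 and 11.17 in part 5. Tbx6, the T-box gene of PSM fate, stood at 9.00, 9.34 and 8.76 in part 4 and at 7.83, 8.14 and 7.62 in part 5. Of the genes that define other tissues, some were near the floor. Sox1 of the neural tube lay between 4.03 and 4.71, Foxa2 of the endoderm between 4.06 and 4.57, and Nog and Chrd of the notochord between 4.03 and 4.67 over the 6 arrays. These genes were all too weak to be tested, and they do not stand for the other markers of their tissues. List means were 5.50 to 5.87 for neural tube, 4.65 to 5.22 for gut endoderm and 4.53 to 4.78 for notochord markers. Blood and endothelial markers were above the floor, with list means of 6.58 to 7.31 and 5.03 to 6.09.

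Mean signals of the 6 arrays lay between 151 and 153, and the correlation between any pair of them over all probe sets between 0.971 and 0.989, with no pair identical. Counts of genes at least 1 log2 unit above both other part 5 arrays were 29, 25 and 61 in replicates 1, 2 and 3. Counts of genes as far below were 67, 13 and 31. Replicate 2 of part 5 stood apart in genes of the tailbud, but not by the number of such genes. Nkx1-2, a homeobox gene of axial progenitors, had a level of 7.70 in it against 4.62 and 4.72 in the other part 5 arrays and at most 4.76 in part 4. Cyp26a1, the enzyme that degrades retinoic acid in the tailbud, had 7.62 there against 4.11 and 5.24. Cdx2 stood at 6.60 there against 4.59 and 4.54, and Sox2 at 6.37 against 5.03 and 5.08. Of 17 tailbud progenitor genes, 13 had their highest part 5 value in this array, which was the case for 28.8% of all genes tested. Of the 25 genes that lay at least 1 log2 unit above both other part 5 arrays in it, 17 (68%) had their highest mean in part 1, against 24.6% of all genes tested. The results are therefore given with and without this array, and its part in them was measured only in that way.

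**Figure D1:**
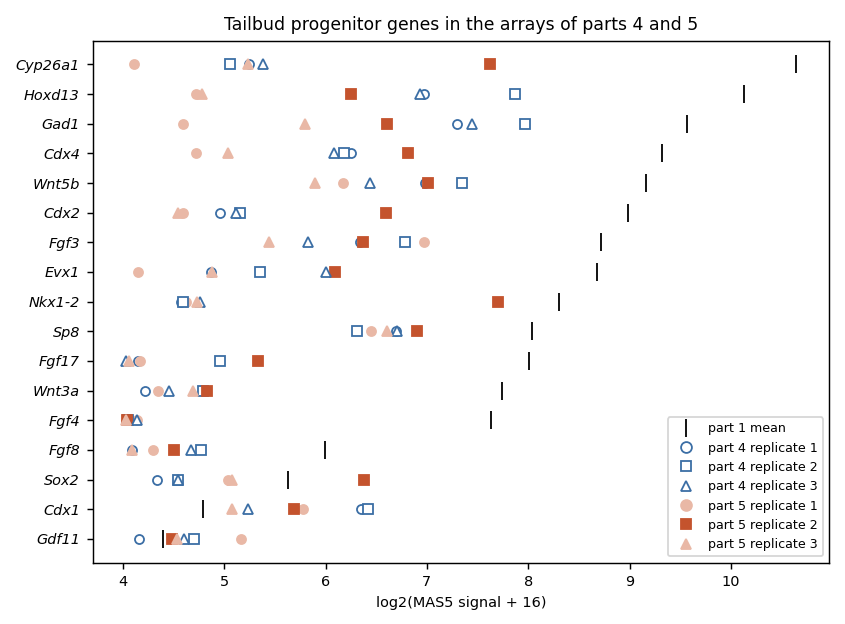
Levels of 17 tailbud progenitor genes, log2(MAS5 signal + 16) on the horizontal axis, in each array of part 4 (open blue) and part 5 (filled, replicate 2 in dark red), with the mean of part 1 as a black bar. Replicate 2 of part 5 lies to the right of the other part 5 arrays in 13 of the 17 genes, by the most in Nkx1-2 and Cyp26a1, and below the part 1 mean in both.

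Of 12143 genes tested, 39 (0.321%) differed between the parts in limma at an adjusted p under 0.05. They were 32 genes (0.264%) higher in part 5 and 7 (0.0576%) lower. The largest rise was that of Cer1, a secreted antagonist of Nodal and BMP, and the largest fall that of S1pr5, a receptor of sphingosine 1-phosphate. Meox2, Pax3, Ebf1, Zic2 and Zic5, all transcription factor genes, and Fgfr2, an FGF receptor gene, were among those that rose. In all 39 the 3 arrays of part 5 did not overlap with those of part 4, which was so for 10.2% of all genes tested. The 39 were picked for a difference between these same arrays, which favours such a gap, so that it adds no support. Without replicate 2 of part 5 the count was 54 (0.445%), 36 (0.296%) higher and 18 (0.148%) lower, and 32 genes were called in both fits. A block for the replicate number raised the count to 105 (0.865%), 56 (0.461%) higher and 49 (0.404%) lower, with all 39 kept, and to 126 (1.04%) when that array was also left out. Single arrays carried much of the count, which was 25 without replicate 1 of part 4, 13 without its replicate 2, 12 without replicate 1 of part 5 and 23 without its replicate 3. Fewer cells of a type and less RNA per cell cannot be told apart in these pieces of tissue.

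**Figure D2:**
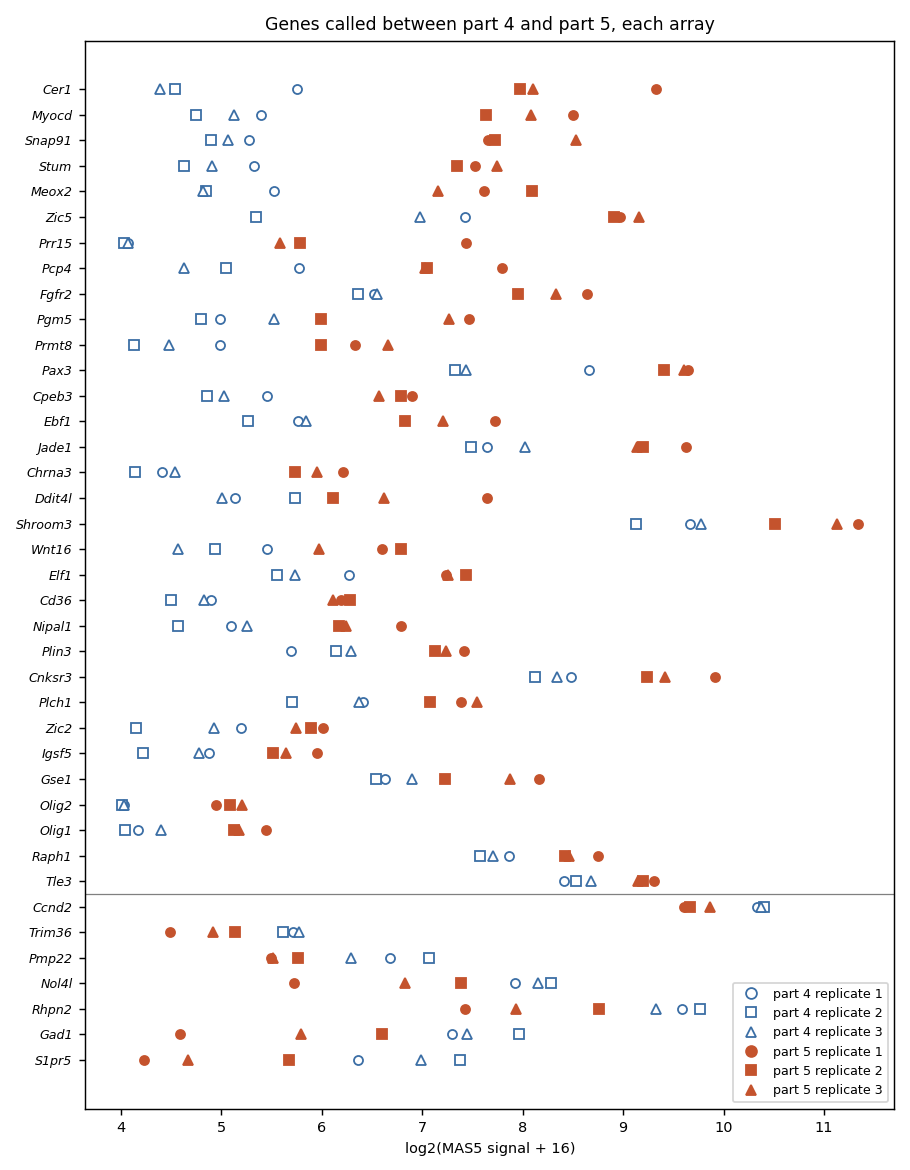
The 39 genes called between part 4 and part 5, one row per gene, with log2(MAS5 signal + 16) of each array on the horizontal axis (open blue, part 4; filled red, part 5; circle, square and triangle, replicates 1, 2 and 3). The grey line separates the 32 genes that were higher in part 5 from the 7 that were lower, and in each row the red and blue symbols do not overlap.

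The proximal promoter sequences of Cer1, Fgfr2 and Meox2 are shown because these genes rose most within the lists of segment boundary, FGF and somite genes. Each is the run of 250 bases that ends just before the annotated start, 5′ to 3′ on the gene's strand, from RefSeq on GRCm38.p6. Capitals mark the core word of Rbpj, the DNA-binding partner of Notch, written TGGGAA and searched on both strands. The Cer1 window is chr4:82885152-82885401 on the minus strand, that of Fgfr2 chr7:130266809-130267058 on the minus strand, and that of Meox2 chr12:37108290-37108539 on the plus strand.
Cer1: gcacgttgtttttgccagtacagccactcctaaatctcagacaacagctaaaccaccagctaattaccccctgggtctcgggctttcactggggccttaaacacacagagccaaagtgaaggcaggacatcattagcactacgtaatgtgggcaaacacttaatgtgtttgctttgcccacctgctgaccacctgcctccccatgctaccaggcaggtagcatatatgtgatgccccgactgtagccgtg
Fgfr2: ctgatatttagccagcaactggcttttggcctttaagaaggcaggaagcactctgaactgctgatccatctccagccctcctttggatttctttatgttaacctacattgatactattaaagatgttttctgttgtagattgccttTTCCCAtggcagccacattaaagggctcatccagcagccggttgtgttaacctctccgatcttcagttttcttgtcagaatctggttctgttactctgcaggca
Meox2: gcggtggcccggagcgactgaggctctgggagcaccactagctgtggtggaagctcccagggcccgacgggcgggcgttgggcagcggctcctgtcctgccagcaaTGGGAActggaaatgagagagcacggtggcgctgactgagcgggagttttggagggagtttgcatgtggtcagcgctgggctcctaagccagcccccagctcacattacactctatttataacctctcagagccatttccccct
The word begins 104 bases before the start of Fgfr2, in the reverse orientation, and 144 bases before that of Meox2. The Cer1 window does not hold these letters. Of 39 promoters of 27 genes that were higher in part 5, 8 (20.5%) held the Rbpj word, against 21.6% of 32851 promoters of the same length. The T-box word GGTGTGA was in 1 of the 39 (2.56%, all promoters 3.33%) and the Tcf and Lef word CTTTGAT in 2 (5.13%, all promoters 3.21%). Of 9 promoters of 5 genes that were lower in part 5, 1 held the Rbpj word (11.1%) and none held either of the other words. No word contains another. These matches are a description of letters and not of binding.

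Cer1 had levels of 5.76, 4.54 and 4.39 in part 4 and of 9.32, 7.97 and 8.10 in part 5. It was thus close to the floor in part 4 except in replicate 1, and well above it in every part 5 array. The difference was 3.57 ± 0.45 (SE, log2), 11.9-fold, with an adjusted p of 0.00033 in limma, and 3.82 without replicate 2 of part 5. Its second probe set, much weaker, differed by 1.05. Cer1 was at 4.08 to 4.51 as a mean in parts 1 to 3 and at 9.36 in part 6. The step from part 5 to part 6 was 0.89 ± 0.45 (adjusted p = 0.74), so that the sharpest change of this gene in the numbering lay between parts 4 and 5.

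Myocd, the gene of the muscle transcriptional coactivator myocardin, had levels of 5.39, 4.75 and 5.13 in part 4, and its part 5 mean was 8.07 ± 0.43 (SD, n = 3). The difference was 2.98 ± 0.32, 7.90-fold (adjusted p = 5.0e-05). Snap91, which encodes the clathrin assembly protein AP180 known from synapses, had levels of 5.28, 4.90 and 5.07 against 7.66, 7.73 and 8.53, and rose 7.41-fold (adjusted p = 2.2e-05). Both were near the floor in part 4 and moderately expressed in part 5, as Cer1 was. Stum, a gene named after a fly gene of mechanosensation, rose from 5.33, 4.63 and 4.91 to 7.53, 7.35 and 7.74. Its difference of 2.58 ± 0.17 had the lowest adjusted p of all genes (3.5e-08). Stum rose again by 1.29 ± 0.17 from part 5 to part 6 (adjusted p = 0.00081; 0.014 without replicate 2 of part 5).

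Of the transcription factor genes that rose, 4 are described next. Meox2 had levels of 5.53, 4.85 and 4.82 in part 4 and of 7.61, 8.10 and 7.16 in part 5, a difference of 2.56 ± 0.35 or 5.88-fold (adjusted p = 0.00095). A second probe set of Meox2 gave 1.95. Pax3, a paired-box gene of dermomyotome and muscle precursors, was already at 8.66, 7.33 and 7.43 in part 4 and reached 9.64, 9.40 and 9.61 in part 5. Its rise of 1.74 ± 0.35 (adjusted p = 0.027) missed the threshold without replicate 2 of part 5 (0.053). Ebf1, a helix-loop-helix factor gene, rose by 1.63 ± 0.23 (adjusted p = 0.0013), from levels of 5.76, 5.27 and 5.84 to 7.73, 6.83 and 7.21. Zic5, a zinc-finger gene, had the most scattered part 4 values of these, 7.43, 5.35 and 6.97, against 8.97, 8.91 and 9.16 in part 5. It rose by 2.43 ± 0.46 (adjusted p = 0.020), and a second strong probe set gave 2.12.

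Fgfr2 stood at 6.52, 6.36 and 6.55 in part 4 and at 8.64, 7.96 and 8.34 in part 5. The difference of 1.84 ± 0.19, 3.57-fold (adjusted p = 5.0e-05), came with little change further on, since part 6 lay 0.43 ± 0.19 above part 5 (adjusted p = 0.66). Pcp4, a small calmodulin-binding protein, rose 4.42-fold (adjusted p = 0.0032). Prmt8, an arginine methyltransferase, rose 3.47-fold (adjusted p = 0.00087), and Pgm5, a phosphoglucomutase relative found at cell adhesion sites, 3.49-fold (adjusted p = 0.0099). Jade1, a subunit of a histone acetyltransferase complex, rose 3.04-fold (adjusted p = 0.0049), and Cpeb3, a regulator of translation, 3.11-fold (adjusted p = 0.027). Cpeb3 missed the threshold without replicate 2 of part 5 (0.072). Prr15 was at the floor in all 3 part 4 arrays (4.08, 4.03 and 4.07) and at 7.44, 5.78 and 5.58 in part 5, with an adjusted p of 0.012.

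The other 17 genes that rose, named here after their values were seen, had differences of 0.68 to 1.60. They include Shroom3, an actin-binding protein of apical constriction, at 9.67, 9.13 and 9.78 in part 4 and 11.33, 10.51 and 11.13 in part 5, the highest levels among all that rose. Wnt16, a Wnt ligand, rose by 1.46 ± 0.25 (adjusted p = 0.0088). Cd36, a fatty acid carrier, rose by 1.45 ± 0.18 (adjusted p = 0.00029). Chrna3, a nicotinic acetylcholine receptor subunit, rose by 1.60 ± 0.21 (adjusted p = 0.00071). Elf1, Ddit4l, Nipal1, Plin3, Cnksr3, Plch1, Igsf5, Gse1, Raph1 and Tle3 make up the rest with Zic2 and the neighbouring helix-loop-helix genes Olig1 and Olig2. Olig1, Olig2, Zic2 and Tle3 had adjusted p values of 0.052, 0.056, 0.064 and 0.061 without replicate 2 of part 5, and were not called there. All 7 genes called only with that array passed without it when the block was used (adjusted p of 0.010 to 0.050).

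Among the 7 genes that fell, S1pr5 had levels of 6.36, 7.37 and 6.99 in part 4 and of 4.23, 5.67 and 4.67 in part 5. The difference was -2.05 ± 0.35, 4.14-fold lower in part 5 (adjusted p = 0.0088; 0.0011 without replicate 2 of part 5). Gad1, the enzyme that makes GABA, had 7.30, 7.97 and 7.44 in part 4 and 4.59, 6.60 and 5.79 in part 5, a fall of 3.76-fold (adjusted p = 0.026; 0.0025 without replicate 2). In both genes replicate 2 was the highest part 5 array, and the fall was larger without it, 5.49-fold in S1pr5 and over 5-fold in Gad1. Rhpn2 fell 2.87-fold from 9.58, 9.77 and 9.32 to 7.42, 8.76 and 7.93 (adjusted p = 0.020). Nol4l fell 2.76-fold (adjusted p = 0.017) and Pmp22, a membrane protein of myelin and epithelia, 2.12-fold (adjusted p = 0.011). Trim36, a ubiquitin ligase, fell 1.81-fold (adjusted p = 0.022). Ccnd2, the gene of cyclin D2, had the smallest SE of the 7, with levels of 10.33, 10.40 and 10.37 against 9.61, 9.67 and 9.86, and fell 1.57-fold (adjusted p = 0.030; 0.089 without replicate 2). Next among the falls, short of the threshold, were Tbx6 (0.054), Btg2 (0.054) and Etv6 (0.062), and all 3 fell with the block (0.0016, 0.010 and 0.0091).

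Without replicate 2, part 5 was represented by replicates 1 and 3 only. Leaving out replicate 2 of part 5 added 10 genes that were higher and 12 that were lower in part 5. Dmrt2, a gene of dermomyotome and early somites, had levels of 4.39, 4.83 and 5.49 in part 4 and of 7.49, 5.62 and 6.29 in part 5, with adjusted p values of 0.062 with and 0.0063 without that array. Uncx, a homeobox gene of the caudal somite compartment, had 5.12, 4.90 and 5.23 against 7.91, 5.73 and 6.24 (0.075 and 0.0065). In both, replicate 2 was the lowest of part 5 and replicate 1 by far the highest. Tbx6 fell 2.24-fold with all arrays (0.054) and 2.47-fold without replicate 2 (0.047). Rspo3, a secreted enhancer of Wnt signalling made in the posterior PSM, had 9.52, 10.06 and 9.57 against 8.30, 9.45 and 8.54 (0.17 and 0.0085). Mpzl2, an adhesion protein, fell 3.70-fold without it (0.017), Fam13c 3.26-fold (0.036), Myom2, a sarcomere protein, 2.85-fold (0.018) and Trim16 2.32-fold (0.049). With the block and all arrays, Mpzl2, Myom2 and Trim16 fell as well (adjusted p = 0.0018, 0.043 and 0.017), and Fam13c did not (0.16).

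**Figure D3:**
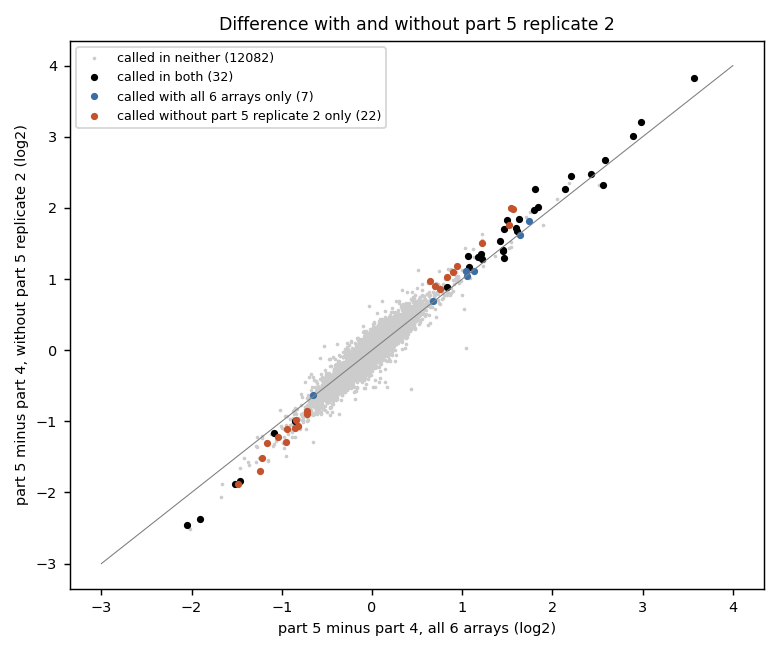
Difference between part 5 and part 4 (log2) of each of 12143 genes with all 6 arrays (horizontal) and without replicate 2 of part 5 (vertical), with the line of equal values in grey. The 32 genes called in both fits (black) and the 22 called only without the array (red) lie away from 0 on both sides, and so do the 7 (blue) called only with it, among genes of like size that were not called (grey).

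Along the 7 parts, the 32 genes that rose had their highest mean in part 5 in 11, in part 6 in 15 and in part 7 in 6. Those with their highest mean in part 5 were Ebf1, Elf1, Tle3, Zic2, Wnt16, Jade1, Raph1, Chrna3, Prr15, Cpeb3 and Zic5. Their differences from part 5 to part 6 ran from -0.85 (Cpeb3) to -0.04 (Tle3), and none was called. The 32 were picked for high part 5 values in the same arrays, which favours a highest mean there. No gene of the 32 was called between parts 3 and 4, where 22 had a higher mean in part 4, and 3 (Stum, Plch1 and Pgm5) were called again between parts 5 and 6. Pgm5 was not called there without replicate 2 of part 5 (adjusted p = 0.19). Of the 7 that fell, 6 had their lowest mean in part 6 and Trim36 in part 5. Over all genes tested, the step from part 3 to part 4 had 6 calls (0.0494%) and that from part 5 to part 6 had 59 (0.486%), or 17 (0.14%) without replicate 2 of part 5. These steps share arrays with the comparison of parts 4 and 5, and their calls are given side by side only.

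**Figure D4:**
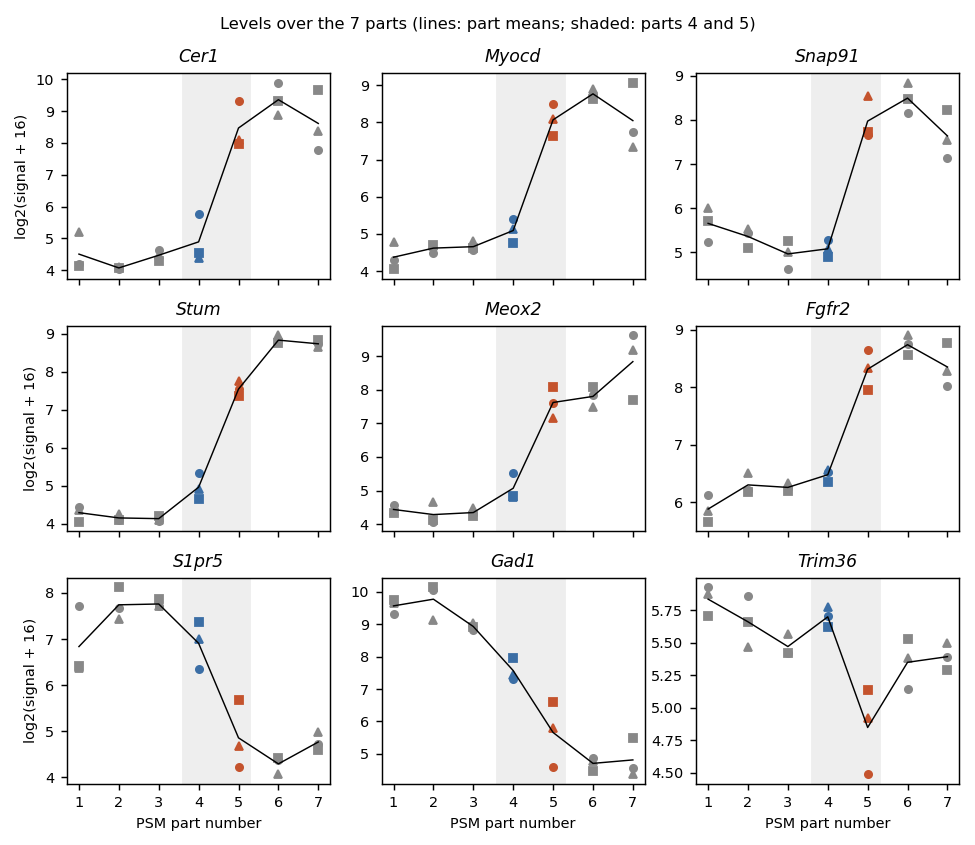
Levels of 9 genes, log2(signal + 16), against PSM part number, 1 panel per gene (circle, square and triangle, replicates 1, 2 and 3; blue, part 4; red, part 5; grey, other parts; line, part means). Cer1, Myocd, Snap91, Stum, Meox2 and Fgfr2 step up between parts 4 and 5, S1pr5 and Gad1 step down, and Trim36 has its lowest mean in part 5.

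A contrast of part 5 with the mean of parts 4 and 6 asks which genes lie away from the average of the neighbours. A large step on 1 side alone can pass it. One gene was called (0.00824% of 12143), Boc, a co-receptor of hedgehog ligands. Its levels were 6.14, 6.31 and 6.24 in part 4 and 7.36, 7.26 and 7.27 in part 6, while its mean in part 5 was 5.70 ± 0.26 (SD, n = 3). Boc was not called between parts 4 and 5 (-0.53 ± 0.19, adjusted p = 0.49 in limma). From part 5 to part 6 it rose by 1.60 ± 0.19 (adjusted p = 0.00062). A second probe set of Boc differed between parts 4 and 5 by only -0.07. Part 5 lay 1.07 ± 0.16 (SE, log2) below the mean of its neighbours (adjusted p = 0.036), but not past the threshold without its replicate 2 (0.26), the lowest of the 3. Without that array no gene was called, with 488 (4.02%) at an unadjusted p under 0.05, against 494 (4.07%) with it. With the replicate block 10 genes were called (0.0824%).

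The genes of the pathways are given next by role, as the number of tested members that passed the threshold. The median difference of all tested genes was -0.02, and 0.321% of them were called. Of 11 segment boundary genes, 1 rose (Cer1) and none fell, with a median difference of 0.56. Mesp2, the boundary factor, did not pass, with levels of 6.67, 7.69 and 10.51 in part 4 and of 7.26, 7.55 and 9.59 in part 5. Its groups overlapped almost fully, and replicate 3 was the highest in both. The difference was -0.15 ± 0.71 (adjusted p = 1), so that with this error a change of moderate size either way was not detectable. Mesp1 behaved alike, with 6.01, 6.68 and 8.97 against 6.96, 6.05 and 7.24. Ripply2, a repressor partner of T-box factors, had 8.65, 5.27 and 8.24 in part 4 and 11.09, 10.31 and 8.32 in part 5 (2.52 ± 1.09, adjusted p = 0.81). Its lowest part 5 array was replicate 3, the one with the most Mesp2.

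Epha4, an Eph receptor of the boundary, had levels of 9.58, 9.36 and 8.45 in part 4 and of 10.79, 10.56 and 10.13 in part 5. The groups did not overlap, and each replicate number moved by a similar amount. The rise of 1.36 ± 0.50 had an adjusted p of 0.55, and of 0.017 with the replicate block. Efnb2, its ephrin ligand, stood at 8.76, 7.96 and 9.39 against 9.93, 9.66 and 10.20 (adjusted p = 0.89). Dmrt2 passed with the block as well (0.029), so that 3 of the 11 rose there and 2 without replicate 2 of part 5. Foxc1 and Foxc2, forkhead genes needed for segmentation, differed by -0.08 ± 0.30 and 0.50 ± 0.28.

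Of 15 genes of somite compartments and differentiation, 2 rose (Meox2 and Pax3) and none fell, with a median of 0.64. With the block 4 rose, Uncx (adjusted p = 0.014) and Tbx18 (0.037) being added. Tbx18, a T-box gene of the rostral somite compartment, had levels of 4.11, 7.14 and 4.82 in part 4 and of 7.79, 7.22 and 7.63 in part 5. Its replicate 2 in part 4 was nearly as high as part 5, and without the block the adjusted p was 0.088. Meox1 and Tcf15, the latter a helix-loop-helix gene of epithelial somites, were already high in part 4, and differed by 0.46 ± 0.39 and 0.50 ± 0.28 (adjusted p = 1 for both). Met, a receptor of migrating muscle precursors, stood at 9.11, 8.61 and 8.79 against 9.95, 9.58 and 9.97 (adjusted p = 0.57), without overlap, and is named after its values were seen.

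Of 15 Notch and clock genes none passed with all arrays, with a median of -0.18. Notch2, a receptor, was at 9.57, 9.27 and 9.76 in part 4 and 10.90, 10.03 and 10.38 in part 5. It rose without replicate 2 of part 5 (adjusted p = 0.013) and with the block (0.016), against 0.062 with all arrays and no block. The ligand Dll1 had 10.40, 10.14 and 11.16 against 8.45, 10.21 and 10.09, and Dll3 10.45, 10.62 and 10.35 against 9.81, 10.17 and 10.06. Dll1 fell with the block and without replicate 2 of part 5 (0.045), and not with the block alone (0.17). Hes7, the clock repressor, had 8.94, 8.57 and 8.78 in part 4 and 8.68, 8.42 and 6.55 in part 5, close together in part 4 and with replicate 3 apart in part 5. Hes5 ran from 5.05 to 7.87 in part 4 and from 5.83 to 9.39 in part 5. For both the adjusted p was 1.

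Of 11 genes of the posterior PSM none passed with all arrays, with a median of -0.19. Tbx6 and Rspo3 fell without replicate 2 of part 5, and with the block (adjusted p = 0.0016 and 0.0024). Arg1 went against the list's name, at 9.61, 8.80 and 10.14 in part 4 and 10.35, 10.50 and 10.92 in part 5 (adjusted p = 0.45). Of 17 tailbud progenitor genes 1 fell (Gad1), and the median was -0.01 with all arrays and -0.32 without replicate 2 of part 5. Gad1 had its highest mean in part 2 (9.77, against 9.57 in part 1). The list that holds it was chosen with earlier results of these data known. Hoxd13, a Hox gene of the tail end, stood at 6.97, 7.87 and 6.93 against 4.72, 6.25 and 4.78, and fell with the block (0.017; 0.24 without it). Wnt3a and Fgf8, the ligands of the tailbud, were near the floor in both parts, at 4.21 to 4.83 and 4.09 to 4.77.

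Of 16 FGF targets and receptors 1 rose (Fgfr2) and the median was -0.16. Il17rd, an FGF antagonist also called Sef, had levels of 8.78, 9.47 and 9.59 in part 4 and 7.26, 8.19 and 7.99 in part 5. It differed by -1.47 ± 0.40 (adjusted p = 0.22), and fell with the block (0.00078). Etv5, Spry2 and Spred2 differed by -1.15 ± 0.40, -0.74 ± 0.34 and -0.72 ± 0.24, and Dusp4 and Dusp6 by 0.11 ± 0.62 and 0.16 ± 0.36, none past the threshold with all arrays. With the block and without replicate 2 of part 5, Etv5 and Spred2 fell (0.025 and 0.0023). Of 14 Wnt targets 1 fell (Ccnd2), with a median of -0.14. Wif1, a secreted Wnt inhibitor, rose without replicate 2 of part 5 (0.031; 0.11 with it), while Ccnd2 was not called there. Tnfrsf19, also called Troy, fell with the block only (0.0068; 0.84 without it). Axin2, the negative feedback target, had 7.69, 8.18 and 8.60 against 7.81, 7.61 and 7.90.

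Of 10 retinoic acid genes none passed, and the median was -0.31. Aldh1a2, the enzyme that makes retinoic acid, was high in both, at 10.01, 9.15 and 9.33 in part 4 and 10.55, 10.54 and 10.01 in part 5 (adjusted p = 0.45). Rarg, a retinoic acid receptor, had 6.71, 7.20 and 6.68 against 5.65, 6.49 and 5.89, and fell without replicate 2 of part 5 (0.013) and with the block (0.034). With all arrays, none passed among 8 hedgehog response genes (median -0.07), 22 genes of adhesion, epithelium and matrix (0.00), 17 of glycolysis (0.05) and 19 of S and M phase (-0.01). The last 2 groups had the tightest differences, from -0.23 to 0.21 in glycolysis and from -0.45 to 0.11 in S and M phase.

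Of 27 Hox genes none passed with all arrays, 20 had a lower mean in part 5, and the median was -0.38. Hoxc4 had levels of 7.92, 8.99 and 8.55 in part 4 and of 6.14, 7.28 and 7.79 in part 5 (adjusted p = 0.38). Hoxc5 had 8.64, 8.51 and 8.60 against 7.32, 7.76 and 8.12 (0.075). Hoxd1 went the other way, with 7.02, 6.52 and 8.01 against 9.29, 8.55 and 8.95, a difference of 1.75 ± 0.40 (0.075). It rose with the block (0.0011), whereas Hoxb4, Hoxc5 and Hoxc10 fell (0.0041, 0.020 and 0.014). Hoxb4 and Hoxc10 are named after their values were seen. Hoxc10 also fell without replicate 2 of part 5 (0.044).

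**Figure D5:**
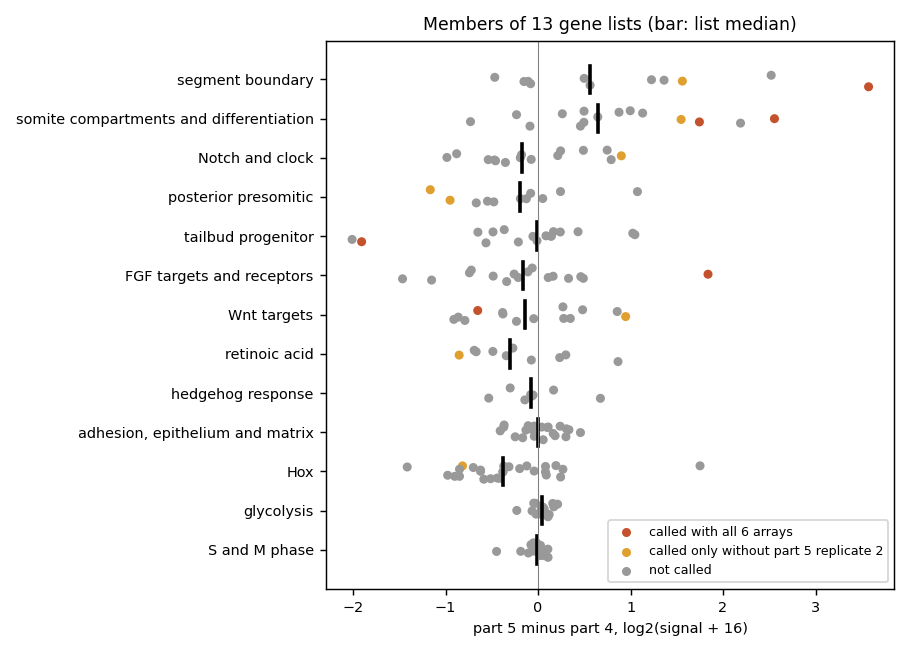
Difference between part 5 and part 4, in log2(signal + 16), of each tested member of 13 gene lists, 1 row per list (black bar, median over the members). Red points were called with all 6 arrays and orange ones only without replicate 2 of part 5. The medians of the segment boundary and somite lists lie at 0.56 and 0.64, that of Hox at -0.38, and those of adhesion, glycolysis and S and M phase within 0.05 of 0.

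Markers of other tissues that a dissection could carry over were read from the same arrays. Of 8 tested neural tube markers 1 rose (Olig2, from 4.03, 4.01 and 4.04 to 4.95, 5.09 and 5.21), with the list's mean level at 5.50 to 5.58 in part 4 and 5.70 to 5.87 in part 5. Olig2 reached the signal needed for testing only in arrays of parts 5 to 7, and so counts as tested through arrays where it is high. Pax6, Sox3 and Nkx6-1 stayed at 5.25 or less, while Fabp7, Irx3 and Ncam1 had higher levels in both parts and did not pass. None passed among the tested markers of blood (8), endothelium (11), gut endoderm (7), neural crest (4), notochord (1), surface ectoderm (4), lateral and intermediate mesoderm (6) or stress (12). Endothelium and lateral mesoderm had a lower mean in part 5 in 10 of 11 and 6 of 6 markers, with medians of -0.24 and -0.60, and gut endoderm in 7 of 7 (-0.40). Neural tube markers had a higher mean in part 5 in 6 of 8 and a lower one in 2 (median 0.23). Neural crest was higher there in 4 of 4 (0.12) and stress in 9 of 12 (0.15). The mean level of endothelial markers was 5.03 to 6.09 in part 4 and 5.05 to 5.56 in part 5. That of lateral and intermediate mesoderm was 4.89 to 5.51 against 4.69 to 5.01. Replicate 3 of part 4 was the highest of the 6 arrays in both. The 3′ to 5′ log2 ratio of the actin control probe sets was 4.08, 3.72 and 3.09 in part 4 and 4.38, 3.07 and 3.15 in part 5. The part of these markers and of this ratio in the results was not tested.

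Of the 39 genes, 25 had more than 1 probe set. Their other 52 probe sets differed with the same sign in 48, and by at least 0.5 in 31. Cer1, Snap91, Stum and Fgfr2 kept their call in the 21 alternatives computed gene by gene, among which the fit of every probe set alone is not counted. In the fit without replicate 2 of part 5, Snap91 and Stum kept it in 19 of 19 alternatives, Cer1 in 17 and Fgfr2 in 18. Myocd, Meox2, Pcp4, Prmt8, Cd36 and Chrna3 lost it in 1 or 2 of the alternatives run with all 6 arrays as the base. The other 29 lost it in 3 or more, up to 12 of 21.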

How the data were processed

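RNA of PSM pieces was labelled in 2 cycles and hybridised to Affymetrix arrays. The authors deposited 1 linear signal intensity for each probe set and array, made with MAS5 per the submitters' processing notes. Neither the MAS5 version nor its target signal is named in the sources used here. Because array means were made alike, a shift common to most genes would be hidden, and double amplification can distort levels. Arrays have no read depth, and their number limits the precision.

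Of 45101 probe sets, 64 were controls, 9160 had no symbol, 932 had several, and 34945 had 1 (34741 found in RefSeq, GRCm38.p6). Each of 18193 genes was read from its probe set of highest mean. Genes that reached the median of all values, 13.3, in at least 3 arrays were tested, 12143 in all. Values were log2(signal + 16). limma 3.58.1 in R 4.3.3 was fitted to all 21 arrays at once (14 residual degrees of freedom) with a variance trend and no covariate, and p-values were adjusted by Benjamini-Hochberg with a threshold of 0.05. The fits were checked on simulated data.

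The labels do not tie replicate numbers to embryos, and the main fit did not pair arrays by number. The deviations of same-numbered arrays of parts 4 and 5 from their part means correlated at 0.23, 0.20 and 0.58. Those of differing numbers correlated at -0.39 to 0.19, a range that 0.23 and 0.20 barely exceed. Pairing by number was run as an alternative. Values with the number as a block are therefore given for the genes described, where they change a call made with all arrays. The genes described were the 15 largest rises and all falls, the 10 largest each way without replicate 2 of part 5, the genes of lowest p up to 10 falls, genes called in part 5 against the mean of parts 4 and 6, up to 5 members of each list by size, and a fixed set of PSM genes. The comparison, members and lists were chosen with earlier results of these data known. Alternatives were other pseudocounts, filters, normalizations, probe set rules, weights and fits, and arrays left out.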

Additional observations from a re-analysis of the deposited data

How the results depend on the processing

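Of the counts of called genes, that of part 5 against part 4 (39) was 29 to 42 under pseudocounts of 1 and 64, other filters, normalizations, the mean of probe sets and no variance trend. With every probe set fitted alone 55 were called, a count of probe sets and not of genes. The gene count was 68 with array weights and 15 with only the 6 arrays compared (fewer residual degrees of freedom). It was 105 with the replicate block as a fixed term and 96 as a random one, and 5 to 54 with arrays or replicate numbers left out. Without replicate 2 of part 5 (54), it was 18 with only the groups compared, 126 and 121 with the fixed and random replicate block, and 2 to 89 with further arrays left out. These alternatives were added after seeing the data. Part 5 against the mean of parts 4 and 6 (1) had 2 calls with a pseudocount of 64, 0 with no filter, with the mean of probe sets, with every probe set alone and with only the groups compared, 10 and 9 with the fixed and random block, and 0 to 2 with arrays left out. No result was reversed. The cause of these shifts was otherwise not tested. The block ended none of the 39 calls of part 5 against part 4. Where 1 array of a part was left out, the spread was taken from all parts. Weak signals near the floor understate fold changes, and 3 arrays a part limit what could be called.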

Other observations

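Mesp1 and Mesp2 were both highest in replicate 3 of part 4 and of part 5. Mesp2 had levels there of 10.51 and 9.59, against 6.67 to 7.69 in the 4 other arrays, and Mesp1 8.97 and 7.24 against 6.01 to 6.96. Other genes that were highest in replicate 3 of both parts were Hes1 (7.02 and 6.12, against 4.95 to 5.96), Hey1 (9.76 and 8.87, against 8.32 to 8.83) and Dusp4 (8.38 and 7.92, against 6.19 to 7.03). Hes7 had its lowest value, 6.55, in replicate 3 of part 5. In part 4, Hes5 was highest in replicate 3 (7.87) and Lfng, which modifies Notch receptors, likewise (6.46), while in part 5 both were highest in replicate 1 (9.39 and 6.19). These genes were picked after their values were seen and no test was made of them.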
